A study of Mus musculus with 4 samples.

Results

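The region described here spans 2.6 Mb of mouse chromosome 13 in the mm8 build, from 21400001 to 24000000, chosen by position as the home of the large cluster of replication-dependent histone genes. It was cut into 4 kb tiles, 650 of the 657686 that cover chromosomes 1 to 19, X and Y. ChIP-seq, in which DNA bound to a chosen histone mark is pulled down with an antibody and sequenced, was run on MDER 10T cells, mouse fibroblasts with an estrogen-inducible MyoD1. The groups are H3K4me3, H3K27me3 and H3K9me3, each from its own antibody, and whole-cell extract (WCE), the unprecipitated control. Each group is 1 library from cells grown in phenol red-free DMEM/F12 with 10% FCS, and the labels name no estrogen treatment for any of them. With no replicates, every test compares the reads of libraries and not conditions, and all intervals are 95% exact intervals that cover counting error only.

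Replication-dependent histone genes encode the linker histone H1 and the core histones H2A, H2B, H3 and H4, and are transcribed mainly while a cell copies its DNA. Many are short, lack introns and exist as near-identical copies. Vomeronasal type 1 receptors, whose genes lie among them, detect pheromones in sensory neurons of the vomeronasal organ. Of the marks measured, H3K4me3 is found at the promoters of active genes. H3K27me3 is laid down by the Polycomb system, which keeps developmental genes off, and H3K9me3 is a mark of compact, silent chromatin.

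Genes could be placed by order only, since the gene table at hand is of another build, GRCm38.p6, and no tile was assigned to a gene. By symbols that start with Hist1h, H1f, H2ac, H2bc, H3c or H4c, 55 histone genes lie in the cluster on chromosome 13, 53 of them protein coding. Where runs of more than 5 other genes separate them, they form 4 groups. The group from H2bc13 to H2ac24 has 18 histone genes, of which 6 encode H2A, 5 H2B, 4 H4, 2 H3 and 1 H1. After 40 genes with other symbols, 31 of them tRNA genes, comes a group of 5, from H2ac12 to H2bc11. The first of the 40 is named H4bc24, which these symbol beginnings do not match. Then follow 147 genes that include 36 vomeronasal receptor genes, 39 vomeronasal pseudogenes, 46 tRNA genes and 2 butyrophilin genes. The group from H4c8 to H1f1 has 30 histone genes, with 7 for H3, 6 each for H2A, H2B and H4, and 5 for H1. A last pair, H2bc1 and H2ac1, follows 8 genes that include 4 of the solute carrier 17 family. None of the genes between the groups has a symbol that starts with Olfr, used for olfactory receptor genes. Symbols that start with Or, and genes outside the groups, were not searched, so the lack of such genes is not shown.

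The promoter sequences that RefSeq gives for these genes (GRCm38.p6) are shown because histone and receptor promoters differ in them and because some histone promoters are copies of each other. They are windows from 250 bases before to 50 after a start site. RefSeq promoters were matched for 50 of the 55 histone genes, 51 promoters in all. Below, H4c17 and H4c18 are histone H4 genes on opposite strands, H3c10 encodes histone H3, and Vmn1r188 is a vomeronasal receptor gene. Each line gives 100 bases, 5′ to 3′ on the gene's own strand. Capitals mark TATAAA in the H4 promoters, CCAAT and TATAAA in H3c10, and CG dinucleotides in Vmn1r188. The H4 promoters carry the same 100 bases.
H4c17 (chr13:21811528-21811627, plus strand): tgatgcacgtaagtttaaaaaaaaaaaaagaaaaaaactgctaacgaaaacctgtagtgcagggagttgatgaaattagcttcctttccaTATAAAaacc
H4c18 (chr13:21832315-21832414, minus strand): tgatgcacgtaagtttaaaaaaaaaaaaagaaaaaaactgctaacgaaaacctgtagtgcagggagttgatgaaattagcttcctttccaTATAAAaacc
H3c10 (chr13:21717507-21717606, plus strand): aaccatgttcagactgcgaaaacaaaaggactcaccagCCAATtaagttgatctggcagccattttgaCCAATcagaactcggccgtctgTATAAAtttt
Vmn1r188 (chr13:22087748-22087847, plus strand): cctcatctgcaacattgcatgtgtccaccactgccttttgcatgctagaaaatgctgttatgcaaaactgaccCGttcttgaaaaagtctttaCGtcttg

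Motifs and CG dinucleotides were counted only in the 250 bases before the start site. The motif TATAAA, read on both strands (TTTATA on the other), was found in 51.0% of the 51 histone promoters. It was in 18.2% of the 33 vomeronasal promoters and in 12.4% of all 32851 promoters in the table. CCAAT, with ATTGG as its form on the opposite strand, was in 84.3% of histone promoters, 33.3% of vomeronasal promoters and 33.8% of all promoters. The median number of CG dinucleotides was 9 in histone promoters, 1 in vomeronasal promoters and 6 in all promoters. These are matches of letters and not measured binding sites. Matches on the 2 strands can overlap, and a promoter was counted once for each motif. Divergent pairs such as H2ac12 and H2bc12 share promoter windows because they lie side by side. With both strands read, the same bases can thus count for both promoters of a pair. The histone promoters are therefore not independent in these shares. Among histone genes whose windows lie apart, 7 pairs, made of 9 genes, share at least 1 word of 36 bases in the whole windows. H4c17 and H4c18 share most, 250 of 265 such words (94.3%).

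Reads were taken from the list with 1 reported position and collapsed to 1 per position and strand. The autosomes then held 3086567 H3K4me3, 2933567 H3K27me3, 2101444 H3K9me3 and 2977697 WCE reads. The region held 2774 H3K4me3, 1928 H3K27me3, 1168 H3K9me3 and 1970 WCE reads. Reads with 2 positions were kept apart. In the region their positions numbered 25.1 per 100 reads with 1 position for H3K4me3, 28.3 for H3K27me3, 41.4 for H3K9me3 and 35.4 for WCE. A read with both places in the region counts at each. On the autosomes the same figure was 4.98 for H3K4me3, 6.03 for H3K27me3, 6.95 for H3K9me3 and 5.88 for WCE. Ratios below are mark over WCE, scaled to equal autosomal totals of reads with 1 position, so that for these reads 1 is the autosomal average.

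H3K4me3 was the mark that stood out. A tile was called where a one-sided exact binomial test of mark against WCE gave a Benjamini-Hochberg adjusted p under 0.05, adjusted over all tiles of the genome with a read, and a ratio of at least 2. For H3K4me3, 29 of 526 tiles tested in the region were called, against 2.33% of tiles genome-wide. For H3K27me3, 1 of 528 was called, against 0.624% genome-wide. For H3K9me3 the exact binomial test called 0 of 538, against 0.0195% genome-wide, with 9 tiles at an unadjusted p under 0.05 and a lowest adjusted p of 0.714.

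Over the whole region H3K4me3 had a ratio of 1.36 (1.28 to 1.44), H3K27me3 one of 0.993 (0.932 to 1.06) and H3K9me3 one of 0.840 (0.781 to 0.904). The region average hides a division, because H3K4me3 lay in few tiles. A tile was named rich where it held at least 4 times the autosomal mean of 5.01 H3K4me3 reads per tile, thus 21 reads or more. By this limit 36 tiles were rich (5.54%), against 2.96% of 615613 autosomal tiles. These 36 tiles held 55.3% of the region's H3K4me3 reads and 17.3% of its WCE reads. Of the 36, 27 were also called against WCE, and 2 called tiles fell short of the limit, with 20 and 18 H3K4me3 reads against 2 and 3 WCE reads.

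Rich tiles were peaked in shape but modest in height. The densest 1 kb held a median of 77.0% of a rich tile's reads in the region (38.1 to 100%) and 76.6% on the autosomes. The median rich tile held 36 reads in the region (21 to 109) and 63 on the autosomes (21 to 1145). The narrowest peaks include the tile at 21512001, where 1 kb held all 38 H3K4me3 reads. The broadest was the tile at 23580001, where the densest 1 kb held 38.1% of 21 reads.

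Rich tiles within 100 kb of each other were joined, which gave 5 runs, and the 2 runs with most rich tiles are called the blocks. The lower block ran from 21952001 to 22060000 (108 kb, 27 tiles, 6 rich). The higher block ran from 23292001 to 23632000 (340 kb, 85 tiles, 19 rich). The span between them covered 1232 kb, from 22060001 to 23292000, with 308 tiles, none of them rich. Since H3K4me3 drew these limits, its levels in blocks and span are given as a description. The counts of H3K27me3, H3K9me3 and WCE were not used in the choice. The H3K4me3 counts were not scaled to WCE, however, so tiles dense in all libraries could pass the limit more easily. WCE had 9.84 reads per tile in the blocks' rich tiles, 4.57 in their other tiles and 1.28 in the span. How far this enters the comparisons of blocks and span that use WCE was not tested.

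**Figure D1:**
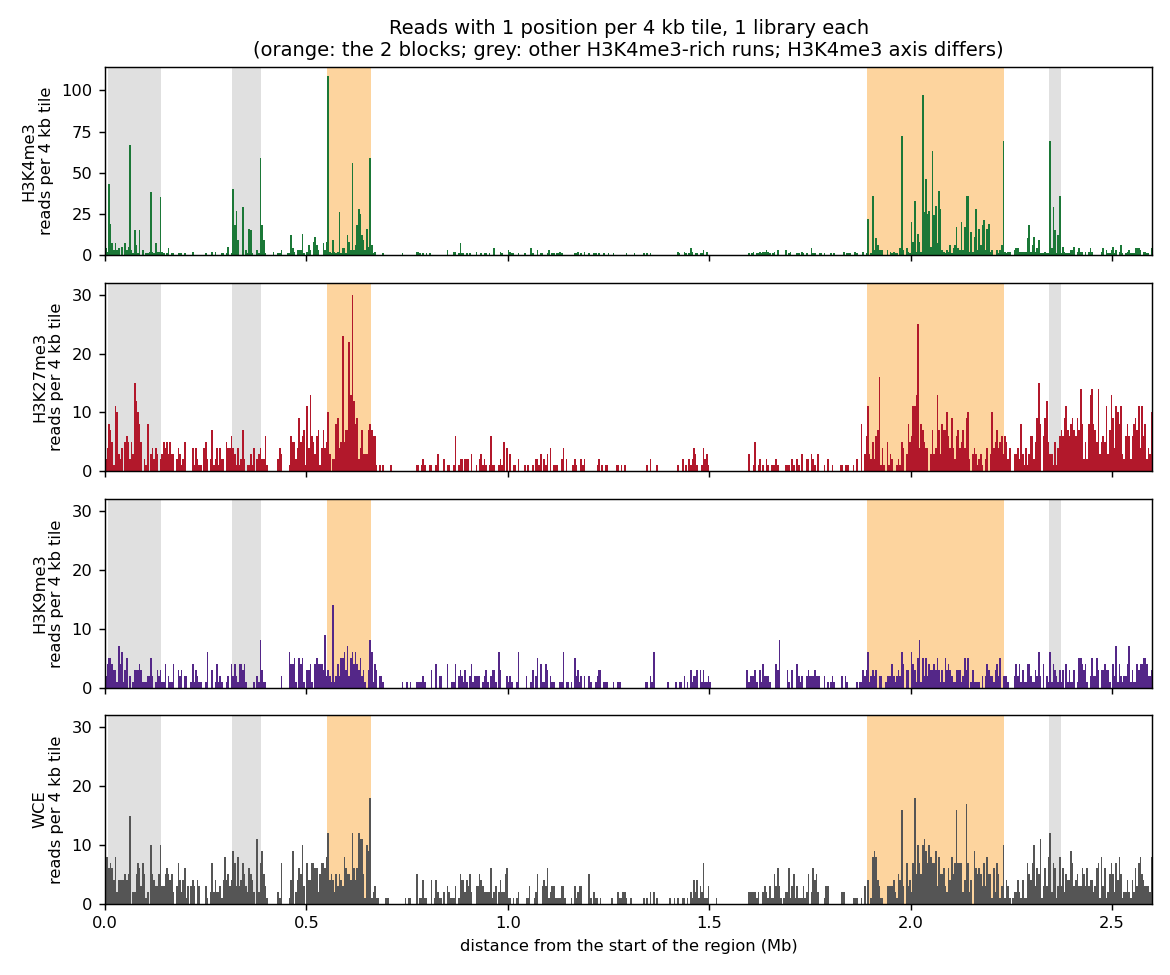
Reads with 1 position per 4 kb tile (y axis) along the region (x axis, Mb from its start) for H3K4me3, H3K27me3, H3K9me3 and WCE, 1 library each, with the blocks in orange, the other rich runs in grey and a taller scale for H3K4me3. H3K4me3 stands in narrow peaks of up to 109 reads inside the shaded runs, while the span holds at most 7 H3K4me3 reads in any tile and few reads of any library.

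In the lower block the tile with most H3K4me3 was its first, at 21952001. It held 109 H3K4me3, 10 H3K27me3, 3 H3K9me3 and 12 WCE reads. The H3K4me3 ratio there was 8.76 (4.82 to 17.5), and the densest 1 kb held 95.4% of its H3K4me3 reads. The last tile of the block, at 22056001, held 59 H3K4me3 and 18 WCE reads (3.16, 1.84 to 5.70), the tile at 22012001 held 56 and 12 (4.50, 2.39 to 9.23) and that at 21980001 held 26 and 5 (5.02, 1.90 to 16.7). The tile at 22028001 was rich but not called, with 28 H3K4me3 and 12 WCE reads (2.25, 1.11 to 4.86, adjusted p = 0.419 by the exact binomial test). The block begins and ends with a rich tile by definition. Of its 6 rich tiles, 2 adjoined each other.

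In the higher block the tile at 23428001 held most, with 97 H3K4me3, 7 H3K27me3, 5 H3K9me3 and 10 WCE reads (H3K4me3 ratio 9.36, 4.88 to 20.1). Next came the tile at 23376001, with 72 H3K4me3 and 16 WCE reads (4.34, 2.5 to 8.0). The tile at 23628001, at the block's far edge, held 69 H3K4me3 and 10 WCE reads (6.66, 3.41 to 14.5). The tile at 23452001 held 63 and 7 (8.68, 3.98 to 22.5), and that at 23436001 held 46 and 9 (4.93, 2.38 to 11.5). Rich tiles were more clumped here, and 12 of the 19 adjoined another. The median distance between starts of neighbouring rich tiles was 8 kb over 18 gaps (4 to 72 kb). In the lower block it was 24 kb over 5 gaps (4 to 32 kb). The share of tiles that were rich was alike, 22.4% here and 22.2% in the lower block. The 100 kb from 23400001 to 23500000 had the highest H3K4me3 ratio of the region's bins of that length, 2.88 (2.42 to 3.44), from 520 H3K4me3 and 174 WCE reads.

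The limit for a rich tile cut through a gradual range in the higher block. Just inside it lay the tiles at 23580001 (21 H3K4me3 and 7 WCE reads), 23292001 (22 and 4) and 23456001 (24 and 7). Just outside it lay those at 23400001 (20 H3K4me3 and 2 WCE reads), 23524001 (20 and 7) and, in another run, 21412001 (19 and 7).

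The blocks matched each other in H3K4me3. The lower block held 425 H3K4me3 and 180 WCE reads, a ratio of 2.28 (1.91 to 2.73). The higher block held 1096 and 464, also 2.28 (2.04 to 2.55). In the span, 181 H3K4me3 reads faced 395 WCE reads, a ratio of 0.442 (0.369 to 0.528), so the blocks' ratio was 5.15 times that of the span (4.21 to 6.32). The median H3K4me3 ratio was 0.833 over 1932 autosomal stretches as long as the span and with at least 50 WCE reads. Of these stretches, 16.4% lay at or below the span. The most H3K4me3 in any span tile was 7 reads at 22280001, where WCE had 5, and the next were 6 reads at 22060001 and 4 at 22364001, against 1 and 2 WCE reads. No tile of the span was called for any of the 3 marks.

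Tiles of the blocks that were not rich held 460 H3K4me3 and 398 WCE reads (1.12, 0.973 to 1.28). This is near the autosomal average, but that average takes in rich tiles. Autosomal stretches with at least 50 WCE reads had a median H3K4me3 ratio of 0.599 at the lower block's length. At the higher block's length the median was 0.697. The limits of the blocks were set by H3K4me3, so a higher level around their rich tiles is part of how they were drawn.

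H3K27me3 also separated blocks from span, by a smaller factor. The lower block held 216 H3K27me3 reads against 180 WCE reads, a ratio of 1.22 (0.995 to 1.49). The higher block held 417 against 464 (0.912, 0.797 to 1.04). The span held 258 against 395 (0.663, 0.565 to 0.778). Both blocks together had 1.5 times the H3K27me3 ratio of the span (1.24 to 1.83, adjusted p = 4.04e-05, two-sided exact conditional test on the reads, adjusted over 6 comparisons). By the same exact test the lower block was 1.84 times the span (1.42 to 2.38, adjusted p = 5.70e-06) and the higher block 1.38 times (1.11 to 1.70, adjusted p = 0.00305). Among 1932 autosomal stretches as long as the span and with at least 50 WCE reads, the median H3K27me3 ratio was 0.894, and 23.4% lay at or below the span. By the same minimum, 19.6% of stretches as long as the lower block lay at or above it in H3K27me3. For the higher block and its length the share was 42.0%, so neither block was unusual in H3K27me3.

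H3K9me3 went the other way. The lower block held 107 H3K9me3 and 180 WCE reads (0.842, 0.657 to 1.08), and the higher block 214 and 464 (0.654, 0.553 to 0.770). The span held 333 H3K9me3 and 395 WCE reads (1.19, 1.03 to 1.39). The blocks had 0.591 times the span's H3K9me3 ratio (0.483 to 0.724, adjusted p = 6.05e-07, two-sided exact conditional test). By that exact test the lower block was 0.705 times the span (0.527 to 0.941, adjusted p = 0.0167) and the higher block 0.547 times (0.437 to 0.684, adjusted p = 3.40e-07). Among the same autosomal stretches as long as the span, the median H3K9me3 ratio was 0.951 and 8.95% lay at or above the span. Without WCE, the reads of H3K27me3 over those of H3K9me3 were 2.55 times as high in the blocks as in the span (2.05 to 3.16).

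**Figure D2:**
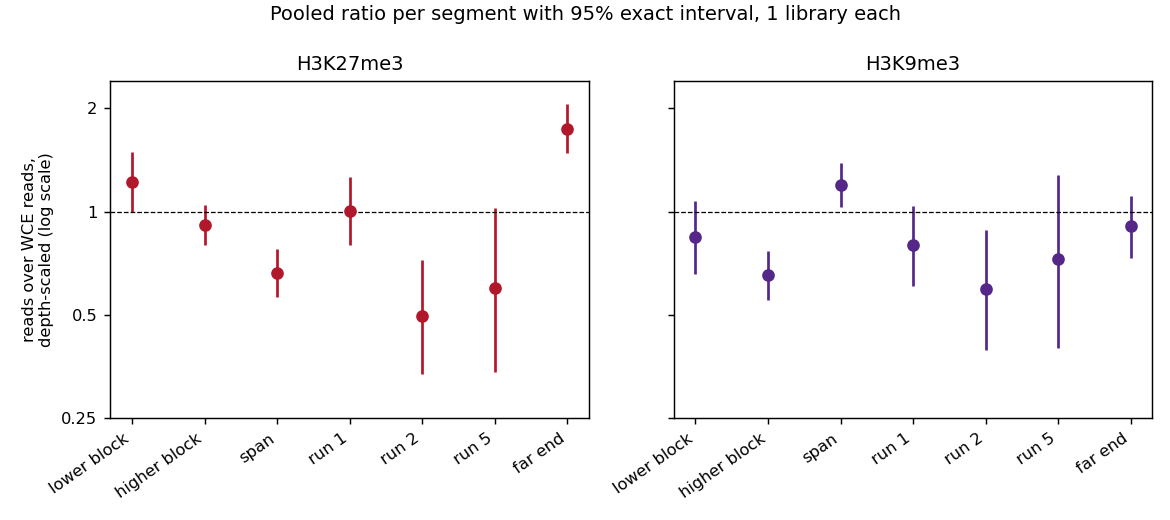
Depth-scaled ratio of H3K27me3 (left) and H3K9me3 (right) reads to WCE reads on a log scale, for each block, the span, the other rich runs (run 1, run 2 and run 5, by their order along the region) and the end of the region past the last run, with 95% exact intervals and 1 library each. H3K27me3 lies at 1.22 and 0.912 in the blocks, against 0.663 in the span, and reaches 1.74 in the far end. H3K9me3 lies at 0.842 and 0.654 in the blocks, against 1.19 in the span.

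Within the blocks, H3K27me3 and H3K9me3 relative to WCE were lower in the rich tiles than in the rest, while their read counts per tile were not. Over the 25 rich tiles of the blocks, H3K27me3 had 6.36 reads per tile and a ratio of 0.656 (0.534 to 0.804). H3K9me3 had 3.52 reads per tile there and a ratio of 0.507 (0.393 to 0.649), and WCE had 9.84 reads per tile. Over the 87 tiles that were not rich, H3K27me3 had 5.45 reads per tile and a ratio of 1.21 (1.06 to 1.38), and H3K9me3 had 2.68 and 0.830 (0.703 to 0.978), with 4.57 WCE reads per tile. WCE was thus denser at the H3K4me3 peaks. Its part in the low H3K27me3 and H3K9me3 ratios of rich tiles was not tested. In tiles that were not rich, blocks against span, the H3K27me3 factor was 1.82 (adjusted p = 6.86e-08) and the H3K9me3 factor 0.694 (adjusted p = 0.00135) by the exact test. This filter took tiles from the blocks only, and the tiles taken were the ones denser in WCE. With all tiles the factors were 1.5 and 0.591, so both were higher under the filter. They are not independent of it.

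The only tile called for H3K27me3, at 21988001 in the lower block, was poor in H3K4me3. It held 23 H3K27me3 reads, against 4 H3K4me3, 5 H3K9me3 and 3 WCE reads, a ratio of 7.78 (2.35 to 40.5, adjusted p = 0.0106 by the exact binomial test). It opens a stretch of 8 tiles, to 22020000, that was singled out after its values were seen. The stretch held 119 H3K27me3 reads against 49 WCE reads (2.47, 1.75 to 3.51), and 7 of its 8 tiles lay above scaled WCE. At 22004001, 22 H3K27me3 reads faced 8 H3K4me3 and 5 WCE reads, and at 22012001 the region's highest H3K27me3 count, 30, lay in a tile that also held 56 H3K4me3 and 12 WCE reads (H3K27me3 ratio 2.54, adjusted p = 0.223 by the exact binomial test). Without this stretch the lower block's H3K27me3 ratio was 0.752 (0.572 to 0.985), and 1.13 times that of the span. The blocks together then stood at 1.32 times the span. Since the stretch was picked for its high H3K27me3 and nothing was left out of the span, these factors fall by construction. They are given as a description only.

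In the higher block the H3K27me3 count was highest at 23416001, with 25 H3K27me3, 13 H3K4me3 and 10 WCE reads (2.54, 1.18 to 5.92, adjusted p = 0.358 by the exact binomial test). The most H3K9me3 in any tile of the region was 14 reads, at 21964001 in the lower block, against 4 WCE reads (4.96, 1.56 to 20.7, adjusted p = 0.714 by the exact binomial test). No other tile held more than 9 H3K9me3 reads. These tiles were chosen for their counts after the values were seen.

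The other 3 rich runs held 3 or 4 rich tiles each. The run from 21408001 to 21540000 held 4 rich tiles, led by that at 21460001 with 67 H3K4me3 and 15 WCE reads (4.31, 2.44 to 8.12). Over its 132 kb H3K4me3 had a ratio of 1.88 (1.55 to 2.29), H3K27me3 of 1.0 (0.798 to 1.26) and H3K9me3 of 0.798 (0.609 to 1.04). The run from 21716001 to 21788000 also held 4 rich tiles, led by that at 21784001 with 59 H3K4me3 and 7 WCE reads (8.13, 3.71 to 21.1). Its H3K4me3 ratio was 2.43 (1.89 to 3.15), while H3K27me3 was at 0.496 (0.336 to 0.722) and H3K9me3 at 0.596 (0.394 to 0.884). The run from 23744001 to 23772000 had the largest share of rich tiles, 3 of 7, and like every run begins and ends with one by definition. Its H3K4me3 ratio was the highest of the 5 runs, 4.11 (2.88 to 5.98). H3K27me3 was at 0.599 (0.341 to 1.03) and H3K9me3 at 0.727 (0.402 to 1.28). In H3K27me3, this run and that from 21716001 lay below the span's 0.663, while that from 21408001 lay above it. Of the rich tiles, 16 of 25 in the blocks and all 11 in these 3 runs were called.

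Past that last run, from 23772001 to the end of the region, lay a stretch of 228 kb with no rich tile and a raised H3K27me3 level, described here after its values were seen. It held 414 H3K27me3 reads against 241 WCE reads, a ratio of 1.74 (1.48 to 2.05), with 108 H3K4me3 reads (0.432, 0.341 to 0.545) and 154 H3K9me3 reads (0.905, 0.735 to 1.11). The excess was spread thinly, since 49 of 57 tiles lay above scaled WCE, the densest held 14 H3K27me3 reads and none was called. Its first 28 tiles had a ratio of 1.71 (1.37 to 2.16) and the remaining 29 had 1.78 (1.41 to 2.25). In the next 228 kb beyond the region the ratio was 0.927 (0.782 to 1.10). The stretch resembles the span in being poor in H3K4me3, but it differs in depth of coverage, with 4.23 WCE reads per tile against 1.28 in the span.

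**Figure D3:**
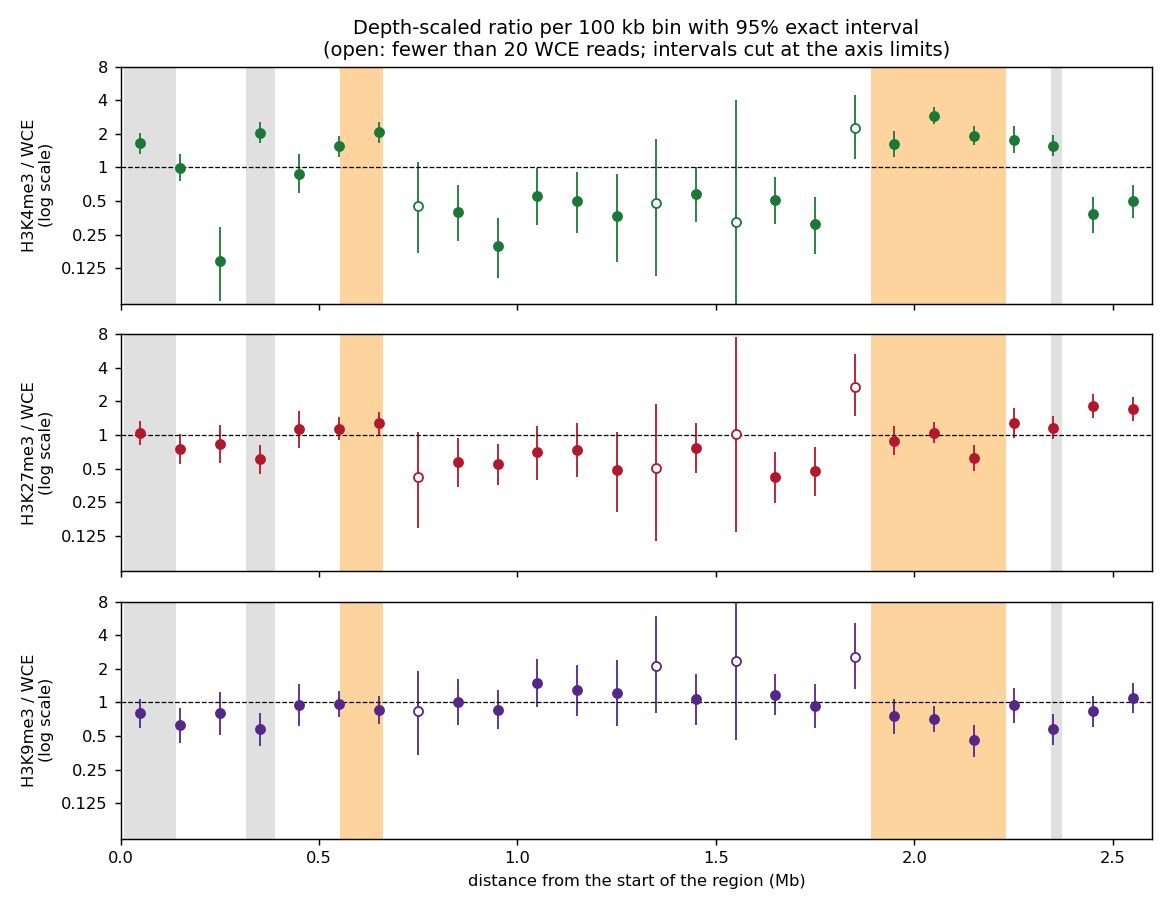
Depth-scaled ratio of H3K4me3, H3K27me3 and H3K9me3 to WCE in 100 kb bins along the region (x axis, Mb from its start; y axis on a log scale), with 95% exact intervals, open points where WCE had fewer than 20 reads, and the blocks in orange and other rich runs in grey. H3K4me3 is highest, at 2.88, in the higher block and lies between 0.196 and 0.574 in the filled points that lie wholly in the span, and H3K27me3 is highest, at 1.70 to 1.81, in the last 200 kb among bins with 20 or more WCE reads.

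The span was thinly covered in all libraries. WCE had 5.75 reads per tile in the blocks (5.31 to 6.21), against 1.28 in the 308 tiles of the span (1.16 to 1.42), so the blocks were 4.48 times as dense (3.95 to 5.09). The blocks were drawn from H3K4me3 counts not scaled to WCE, so this factor is not independent of how they were drawn. WCE had no read in 131 span tiles, and 74 had no read in any library. Among 1987 autosomal stretches of this length, 4.48% had as few WCE reads per tile. All 4 stretches of at least 5 adjoining tiles without a read lay in the span, the longest from 22920001 to 22992000 (72 kb). Reads with 2 positions filled part of these gaps. The blocks had 51 WCE positions from such reads, or 7.92 per 100 reads with 1 position, against 433 in the span, or 110 per 100. The 72 kb without reads of 1 position held 29 H3K4me3, 29 H3K27me3, 74 H3K9me3 and 67 WCE positions of this kind. The part of repeated sequence in the thin coverage was not tested, as no mm8 sequence was at hand.

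At the span's upper end, a 100 kb bin from 23200001 to 23300000 had raised ratios for all 3 marks, 2.25 for H3K4me3, 2.71 for H3K27me3 and 2.55 for H3K9me3. It held 35, 40 and 27 reads of these marks against 15 WCE reads, and the lone WCE count enters all 3 ratios. The first tile of the higher block, at 23292001, gave 22 of the H3K4me3, 11 of the H3K27me3, 6 of the H3K9me3 and 4 of the WCE reads, so most of the bin's H3K4me3 is not the span's.

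Reads with 2 positions showed a further H3K4me3 peak that the reads with 1 position could not show. Such a read is listed at both places and its origin is unknown. Their ratios use the same scaling, on which the autosomal average of reads with 2 positions lies below 1 for H3K4me3 and above 1 for H3K27me3 and H3K9me3. In these reads, 3 of 296 tiles tested in the region were called for H3K4me3, against 0.423% genome-wide. For H3K27me3 the exact binomial test called 0 of 318 (0.0228% genome-wide), with 2 tiles at an unadjusted p under 0.05, and for H3K9me3 0 of 294 (0.0103% genome-wide), with 0 tiles at that level. The tile at 21816001 held 84 H3K4me3, 9 H3K27me3, 10 H3K9me3 and 24 WCE positions, and that at 21840001 held 61, 7, 9 and 25. The tile at 21836001 held 28 H3K4me3 and 3 WCE positions. The same 3 tiles held 2, 0 and 3 H3K4me3 reads with 1 position.

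The 3 tiles are views of 1 set of reads. Around 21829418.5, 162 pairs of positions on opposite strands mirrored each other exactly, over 48.4 kb from 21805215 to 21853622, which is how an inverted repeat appears in such lists. Of the positions in this stretch, 96.7% for H3K4me3, 98.5% for H3K27me3, 98.5% for H3K9me3 and 98.0% for WCE had a mirror image within 30 bp. Counted once, in the lower arm alone, the stretch held 105 H3K4me3 and 49 WCE positions (2.07, 1.46 to 2.96), 32 for H3K27me3 (0.663, 0.411 to 1.06) and 33 for H3K9me3 (0.954, 0.595 to 1.51). The stretch lies between the rich run that ends at 21788000 and the lower block, and its H3K4me3 could belong to either arm or both.

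**Figure D4:**
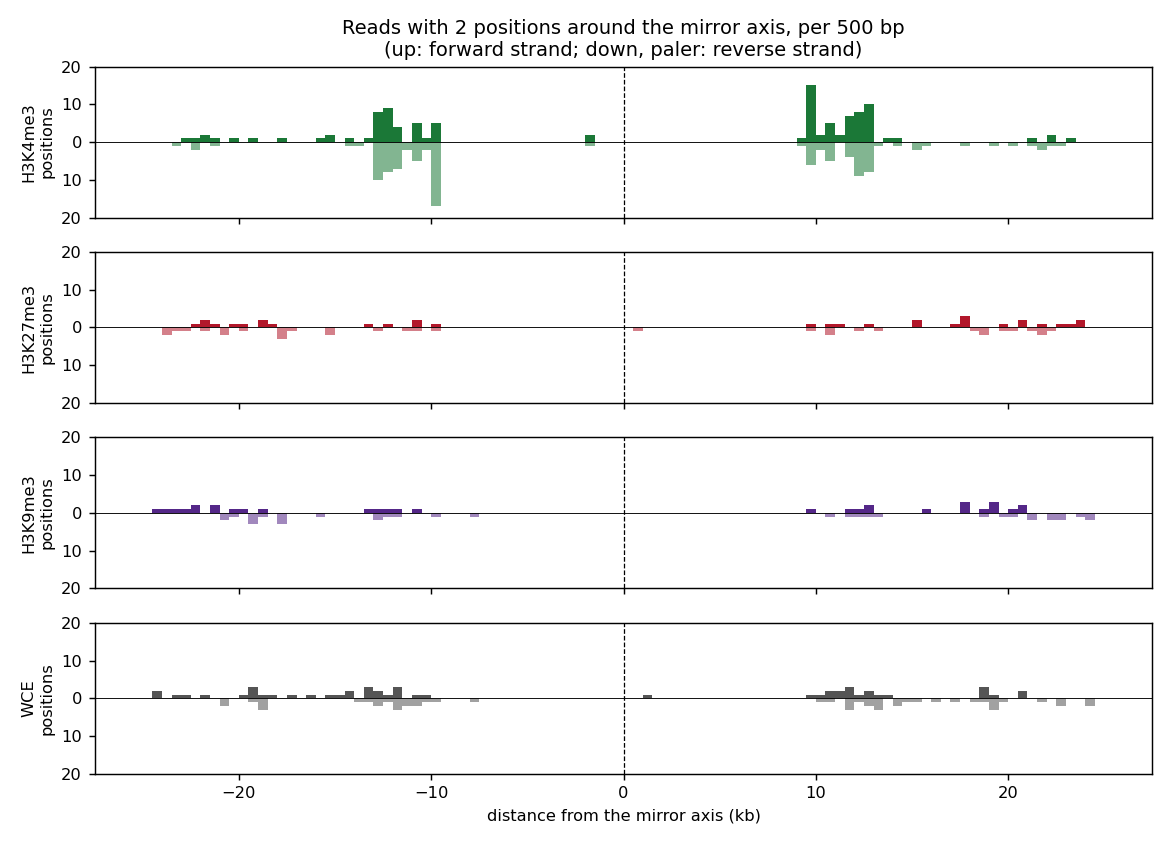
Positions of reads with 2 positions per 500 bp (y axis, forward strand up, reverse strand down) against distance from the mirror axis in kb (x axis), 1 library each. The H3K4me3 peaks lie at about 10 to 13 kb on both sides as mirror images with strands exchanged, each read being listed at both, and the H3K27me3, H3K9me3 and WCE positions show no peak of that height.

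The promoters of H4c17 and H4c18 printed above are likewise identical over 100 bases and lie on opposite strands. They were read from another build, and whether they lie in the mirrored stretch was not tested. A second mirrored set lay inside the span, around 22953983.5, with 54 exact pairs over 71.0 kb, 20 from H3K9me3, 19 from WCE, 8 from H3K27me3 and 7 from H3K4me3. It runs from 22918487 to 22989480 and so takes in most of the 72 kb that held no read with 1 position.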

How the data were processed

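The authors aligned reads to mm8 with Bowtie (options e 70, k 2, m 2, n 2 and l 36), per the file headers and, for the tool's name, per the submitters' processing notes. The deposited files list signed read positions, 1 or 2 per read, in no other unit, and reads matching more than 2 places were dropped. Per the labels' protocols, sonication left fragments of 500 bp on average, which were amplified for 18 cycles and size-selected at 150 to 350 bp.

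From the deposited lists, positions were counted from 1, collapsed to 1 read per position and strand (5.68 to 9.11% of the region's reads were repeats), moved 60 bp along the strand and counted in 4 kb tiles. WCE is the control for all 3 marks, which therefore share it. Calls came from the one-sided exact binomial test over the genome, and blocks were compared with the span by the two-sided exact conditional test. Clopper-Pearson intervals were used. Reads amplified by PCR carry no molecular identifiers here, so they are not independent counts.

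Named tiles are the 5 with most H3K4me3 in each block, the 3 nearest the richness limit on each side, tiles called for H3K27me3, the 3 span tiles with most H3K4me3, and the 3 with most reads of 2 positions per mark. Other tiles were chosen after their values were seen. The members, rules and lists were chosen with earlier results of these data known. Alternatives changed repeated reads, tile size and grid, shift, scaling, thresholds, block limits and control. The work used scipy 1.17.1, numpy 2.4.6 and matplotlib 3.10.9 under Python 3.11.15.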

Additional observations from a re-analysis of the deposited data

Results flagged for a closer look

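Reads with 2 positions, which are outside the main measurement, gave H3K4me3 signal above the WCE control in 3 tiles. The depth-scaled H3K4me3 ratio was 3.38 at 21816001 (2.12 to 5.56), 9.0 at 21836001 (2.78 to 46.3) and 2.35 at 21840001 (1.46 to 3.91). The tile at 21816001 lies on 1 side of the mirror axis, and those at 21836001 and 21840001 lie on the opposite side. Most reads are listed on both sides, so the tiles are not 3 separate observations.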

How the results depend on the processing

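No paired analysis was possible because each group is 1 library. Leaving out a library was not possible either. Scaling by 100 kb bins gave 53 called H3K4me3 tiles against 29. The H3K27me3 count of 1 became 2 with all reads kept and with no shift, 5 with scaling by 100 kb bins, and 0 with 1 kb tiles, at an adjusted p under 0.01 and against the larger of tile and local WCE. H3K9me3 stayed at 0 in the 10 alternatives run. The H3K9me3 factor of blocks over span stayed between 0.547 and 0.731 and past the threshold. The H3K27me3 factor stayed past it except at 1.12 (adjusted p = 0.235, exact test) with blocks drawn from called tiles, when the lowest run replaced the lower block and the span took in other rich runs, and at 1.13 for the lower block without its 8 dense tiles, an alternative chosen after seeing the data. The H3K4me3 factor of 5.15 was 2.15 with blocks from called tiles, 4.10 with runs joined across 200 kb, 2.52 without rich tiles and 7.94 in tiles with at least 2 WCE reads. The WCE density factor of 4.48 was 3.88 with rich tiles at 2 times the mean, 2.44 with blocks from called tiles, 3.63 with runs joined across 200 kb, 2.31 with reads of 1 and 2 positions, 3.57 without rich tiles, 2.03 in tiles with at least 2 WCE reads and 5.20 for the lower block alone. Rich tiles in the blocks numbered 58 at 2 times the mean and 7 at 8 times, against 25. Tiles called from reads with 2 positions numbered 5 when scaled by those reads, against 3. Where not given above, the cause was not tested. With 1.28 WCE reads per span tile, single tiles of the span could show only large differences.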
